A study of Mus musculus with 2 samples.

Results

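The genes described here are 28 enzymes, regulators and carriers of cholesterol synthesis, from Acat2 at the entry of the mevalonate pathway to Dhcr7 near its end, with the SREBP2 machinery that sets their transcription. They were chosen by name, with earlier results of these data known, and are given in the order of the pathway. All 28 were among the 21014 genes of both deposited tables. The tables describe cells of the fibroblastic stroma of the lung, taken from C57Bl/6J mice and profiled 1 cell at a time with the 10x Genomics Single Cell 3′ v3 kit per the labels' protocols. The HFD library came from animals given a high fat diet for 16 weeks and the NC library from animals given normal chow for the same time. With 1 library per diet there was no replicate and no test, and the number of animals behind each library is not given in the sources used here. Every interval below is a 95% counting interval and covers counting error only, so an interval clear of 1 describes these libraries and not the diets.

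Cells build cholesterol from acetyl-CoA. The mevalonate steps yield isoprenoid units, which are joined into squalene, closed into the sterol lanosterol and trimmed to cholesterol. The transcription factor SREBP2 (gene Srebf2) drives most of these enzyme genes. It is made as a precursor in the membrane of the endoplasmic reticulum, where SCAP binds it. When membrane sterols are low, SCAP carries it to the Golgi and the proteases S1P (Mbtps1) and S2P (Mbtps2) release its active part. When sterols are plentiful, the INSIG proteins hold SCAP back, and Insig1 is itself a target of SREBP2. In the lung, alveolar fibroblasts store neutral lipid and lie next to the epithelial cells that make surfactant.

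SREBP2 binds sterol regulatory elements, commonly near CCAAT boxes that are bound by the factor NF-Y. RefSeq promoters (build GRCm38.p6, 250 bases before to 50 after a start) were at hand for 24 members. Fdps, Fdft1, Sqle and Stard4 were not matched. The sterol element was searched as TCACNCCAC, the CCAAT box as CCAAT and the GC box as GGGCGG, on both strands. Only these exact spellings were searched, so a sterol element of another form would be missed. A base could belong to matches of more than 1 motif. The 5 windows below are printed from 5′ to 3′ on the strand of the gene, with matches to TCACNCCAC or CCAAT in capitals. A CCAAT box on the opposite strand reads ATTGG. Hmgcs1 (chr13:119690101-119690400, plus strand) is shown as the only member with a match to TCACNCCAC. Cyp51 (chr5:4104648-4104947, minus strand), Idi1 (chr13:8885356-8885655, plus strand) and Hsd17b7 (chr1:169969156-169969455, minus strand) are shown, by a choice made after the search, as members with low HFD over NC ratios. Mbtps2 (chrX:157598666-157598965, minus strand) holds none of the motifs. It is shown as the member with the highest ratio, above 1, of those without TCACNCCAC or CCAAT. The windows were partly picked by ratio, so they give no comparison of motif with ratio. These positions belong to GRCm38 and not to the newer build of the deposited tables.
Hmgcs1: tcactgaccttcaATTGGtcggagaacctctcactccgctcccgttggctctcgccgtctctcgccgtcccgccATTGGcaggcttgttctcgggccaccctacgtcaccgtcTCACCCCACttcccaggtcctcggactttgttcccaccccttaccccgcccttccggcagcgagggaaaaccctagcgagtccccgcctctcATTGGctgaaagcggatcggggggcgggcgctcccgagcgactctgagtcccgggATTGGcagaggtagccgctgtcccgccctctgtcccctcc
Cyp51: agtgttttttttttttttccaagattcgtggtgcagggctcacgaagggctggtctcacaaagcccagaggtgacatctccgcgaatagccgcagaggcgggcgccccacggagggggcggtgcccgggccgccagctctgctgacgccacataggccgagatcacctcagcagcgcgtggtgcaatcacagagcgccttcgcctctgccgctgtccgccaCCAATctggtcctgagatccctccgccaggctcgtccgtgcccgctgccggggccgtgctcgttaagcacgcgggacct
Idi1: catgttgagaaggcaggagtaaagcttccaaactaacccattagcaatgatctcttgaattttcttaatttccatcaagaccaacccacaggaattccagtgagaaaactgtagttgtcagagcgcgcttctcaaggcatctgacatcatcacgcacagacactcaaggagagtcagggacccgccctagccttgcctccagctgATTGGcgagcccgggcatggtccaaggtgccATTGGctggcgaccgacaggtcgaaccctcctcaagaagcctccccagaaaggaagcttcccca
Hsd17b7: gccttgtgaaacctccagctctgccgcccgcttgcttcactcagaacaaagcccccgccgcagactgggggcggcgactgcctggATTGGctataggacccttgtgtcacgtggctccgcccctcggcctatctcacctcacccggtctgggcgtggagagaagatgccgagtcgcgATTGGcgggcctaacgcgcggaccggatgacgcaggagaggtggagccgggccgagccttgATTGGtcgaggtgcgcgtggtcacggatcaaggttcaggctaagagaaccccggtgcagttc
Mbtps2: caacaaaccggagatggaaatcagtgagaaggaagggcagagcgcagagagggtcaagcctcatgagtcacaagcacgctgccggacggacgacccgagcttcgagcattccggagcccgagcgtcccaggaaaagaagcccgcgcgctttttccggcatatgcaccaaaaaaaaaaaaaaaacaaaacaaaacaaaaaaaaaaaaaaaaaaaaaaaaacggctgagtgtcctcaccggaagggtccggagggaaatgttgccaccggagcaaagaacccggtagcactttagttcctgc

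In the Hmgcs1 window the TCACNCCAC match began at position -137 from the start and CCAAT matches began at -237, -176, -45 and 11. The Idi1 window held CCAAT at -45 and -14, Hsd17b7 at -165, -73 and -12, and Cyp51 at -29. TCACNCCAC was found in 1 of the 24 members and in 1.44% of the 27025 genes with a promoter in the table (1.24% of its 32851 windows). The CCAAT box was found in 20 of the 24 members, or 83.3%, against 41.1% of all genes with a promoter (37.4% of windows). The GC box was found in 21 members, or 87.5%, against 38.2% of genes (35.7% of windows). Pmvk, Scap, Dhcr7 and Insig2 had more than 1 window, and a motif in any of them was counted. Acat2, Scap, Mbtps1 and Mbtps2 held no CCAAT in these windows. The shares are over all genes with a promoter, and those among genes measured in these cells were not computed. These matches are descriptions of letters and not of bound sites.

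Cells with fewer than 500 genes or more than 10% mitochondrial counts were set aside, which kept 6089 of 6971 HFD cells and 8140 of 9015 NC cells. The deposited annotation placed them in 5 classes: Asc1 fibroblasts (3092 HFD and 3999 NC cells), Gas6 fibroblasts (1095 and 2002), Pi16 fibroblasts (796 and 1222), myofibroblasts (510 and 667) and pericytes (596 and 250). Of the defining markers, the 6 of Asc1 and the 6 of Pi16 fibroblasts were highest in their own class in both libraries, as were 4 of 5 myofibroblast markers and 3 of 7 pericyte markers (Cspg4, Notch3 and Rgs5). Gas6 stood at 250.3 CPM (counts of a gene per fixed total of the group's counts) in HFD Gas6 fibroblasts and at 279 CPM in HFD Pi16 fibroblasts (309 and 277 CPM in NC). The pericyte marker Higd1b stood at 69.0 CPM in HFD and 26.2 CPM in NC cells labelled myofibroblasts, but at 3.86 and 2.04 CPM in cells labelled pericytes. Cox4i2 stood at 155 and 102 CPM in the former and 33.0 and 36.1 CPM in the latter, and Pdgfrb at 122 and 78.5 against 91.1 and 66.0 CPM. Kcnk3 was higher in pericytes in HFD only (91.4 against 75.7 CPM, and 55.3 against 71.9 CPM in NC). The myofibroblast marker Lgr6 stood at 52.7 and 49.9 CPM in myofibroblasts and at 113 and 65.1 CPM in pericytes. These 2 classes are therefore called by the names of the annotation only. The class labelled pericytes also held the smooth muscle gene Acta2 at 12769 CPM in HFD and 12126 CPM in NC, with the pericyte gene Cspg4 at 134 and 99.8 CPM. The first 4 classes were pooled as fibroblasts, with 57794406 HFD and 65530663 NC counts and a median of 9541 and 7401.5 counts per cell. In the pooled fibroblasts the alveolar type 2 markers Sftpc and Sftpa1, the epithelial marker Epcam, the leukocyte markers Ptprc and Cd3e, the endothelial marker Pecam1 and the mesothelial marker Msln were at 0 in both libraries. The 7 alveolar type 2 markers summed to 3.55 CPM in HFD and 2.53 CPM in NC, the 5 of other epithelium to 32.8 and 24.0 CPM and the 7 macrophage markers to 18.5 and 16.1 CPM. The 5 immune markers summed to 0.865 and 3.89 CPM, the 4 endothelial markers in the tables to 0.467 and 1.04 CPM and the 4 cycling markers to 1.18 and 2.03 CPM. The 3 mesothelial markers summed to 1.64 and 2.64 CPM, the 7 pericyte markers to 74.9 and 63.6 CPM and the 6 smooth muscle markers to 531 and 677 CPM. The part of such cells in the results was not tested. The libraries shared 17 cell barcodes, 16 of them among kept cells.

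Most genes of the pathway had an HFD over NC ratio below 1 in pooled fibroblasts, some of them with intervals that held 1. The largest differences were at Sqle, Cyp51 and Idi1. A gene was counted as measured when its effective counts in both libraries summed to at least 50, where an effective count is a count divided by the gene's own variance factor, since the recovered counts spread more widely than single molecules would. All 28 members were measured in the pooled fibroblasts. Of them, 10 were lower by size, meaning at least 1.5-fold lower in HFD, against 4.3% of the 13125 measured genes. None was higher by size, against 5.17% of measured genes. Sqle, Cyp51 and Idi1 were at least 2-fold lower, against 0.914% of measured genes, and 14 members had a ratio of 0.8 or less, against 12.9%. Without the cells labelled myofibroblasts, 10 of 28 were again lower by size, against 4.40% of measured genes. The ratio was below 1 for 23 of 28, against 46.1% of measured genes. The whole interval lay below 1 for 13 members, against 15.6% of measured genes, and above 1 for none, against 18.5%. The median log2 ratio of the members was -0.29, against 0.03 over all measured genes. Summed over the 28 genes, the level was 592 CPM in HFD and 768 CPM in NC, a ratio of 0.771.

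**Figure D1:**
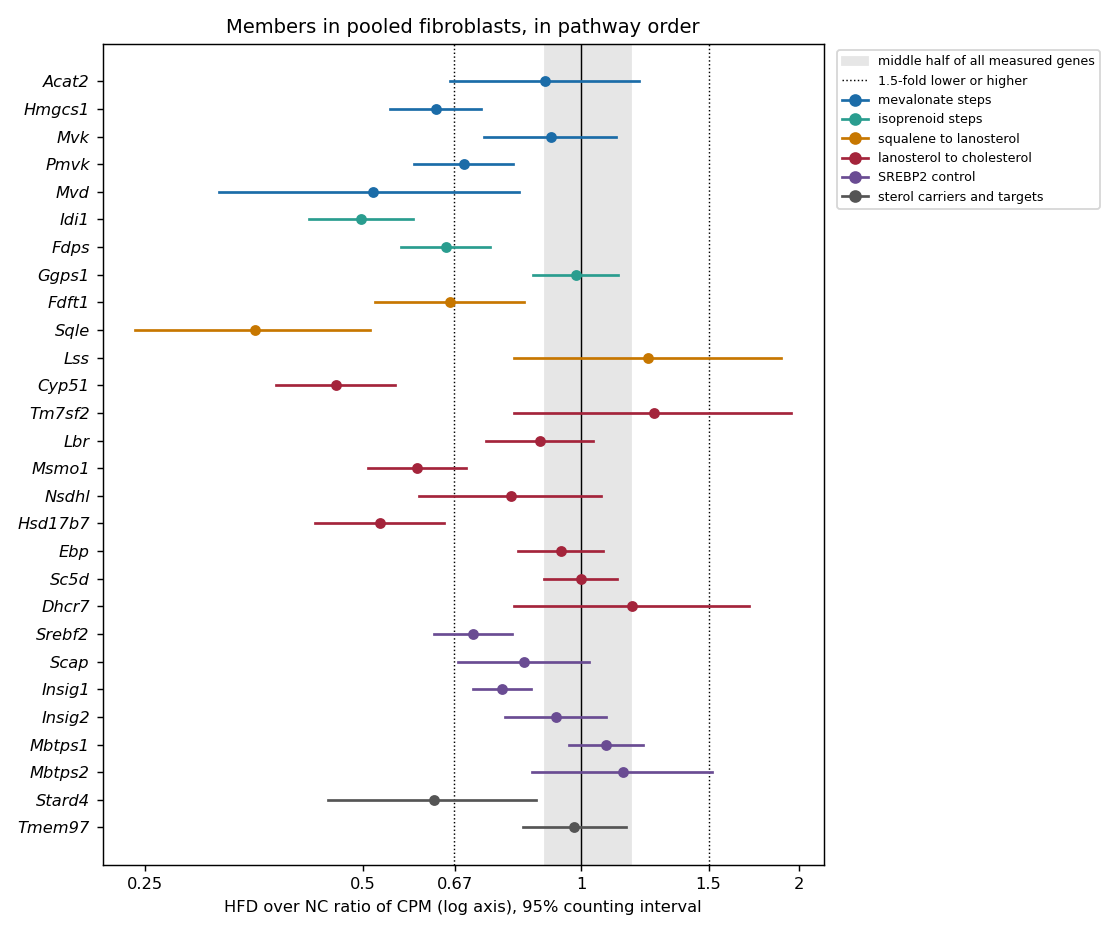
HFD over NC ratio of each of the 28 genes in pooled fibroblasts (log axis, points) with its 95% counting interval (bars), in pathway order and coloured by role; the grey band is the interquartile range of all measured genes and the dotted lines mark 1.5-fold. Sqle, Cyp51 and Idi1 lie farthest to the left with ratios of 0.355, 0.459 and 0.497, and no interval lies wholly to the right of 1.

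Of the 5 mevalonate enzymes, Hmgcs1 and Mvd were lower by size and the median log2 ratio was -0.54. Hmgcs1, the synthase that makes the precursor of mevalonate, stood at 30.9 CPM in HFD and 49.0 CPM in NC, a ratio of 0.630 (interval 0.545 to 0.728). Mvd, the decarboxylase that closes the mevalonate steps, stood at 2.54 CPM in HFD and 4.93 CPM in NC, a ratio of 0.516 (interval 0.316 to 0.821). Counts of it were few and came from 43 HFD and 93 NC cells. The ratio was 0.299 without Asc1 fibroblasts, where Mvd had too few effective counts to be measured. It was no longer lower by size without Gas6 fibroblasts (0.723) or in cells of 5000 to 10000 counts (0.697). Pmvk, the kinase before it, stood at 35.1 CPM in HFD and 50.9 CPM in NC, a ratio of 0.689 (interval 0.588 to 0.806), just short of the 1.5-fold limit. Mvk, the first kinase of the series, stood at 16.0 CPM in HFD and 17.6 CPM in NC, a ratio of 0.908 (interval 0.735 to 1.12). Acat2, a thiolase that joins acetyl-CoA units in the cytosol, stood at 6.83 CPM in HFD and 7.66 CPM in NC, a ratio of 0.892 (interval 0.658 to 1.20). The intervals of Mvk and Acat2 held 1. A near copy of Acat2, Acat3, is in the tables, so reads of these genes may have been split between them.

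Of the 3 isoprenoid genes, 2 were lower by size and the ratio of the third was near 1. Idi1, the isomerase that balances the building blocks, stood at 20.6 CPM in HFD and 41.4 CPM in NC, a ratio of 0.497 (interval 0.421 to 0.585). Fdps, which joins them into farnesyl diphosphate, stood at 34.1 CPM in HFD and 52.5 CPM in NC, a ratio of 0.651 (interval 0.564 to 0.749). With stricter limits on cells the ratio was 0.668, short of the 1.5-fold limit. Ggps1 takes the same units towards geranylgeranyl groups for proteins, away from sterols. It stood at 34.3 CPM in HFD and 34.9 CPM in NC, a ratio of 0.983 (interval 0.859 to 1.12), and counts of it were found in 9.74% of HFD and 8.92% of NC cells. Fdps overlaps Gm43738 on the same strand and Ggps1 overlaps Arid4b on the other strand in the GENCODE M21 annotation, and whether counting used strand is not given in the sources used here.

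Between squalene and lanosterol, Sqle had the lowest ratio of all 28 genes. Fdft1, the squalene synthase that commits farnesyl diphosphate to sterols, stood at 10.0 CPM in HFD and 15.2 CPM in NC, a ratio of 0.659 (interval 0.519 to 0.833), just past the 1.5-fold limit. It fell short of that limit under 7 of the 19 alternatives tried, with ratios from 0.667 to 0.773. Sqle, the squalene epoxidase and a rate-limiting oxygen-dependent step, stood at 3.77 CPM in HFD and 10.6 CPM in NC, a ratio of 0.355 (interval 0.242 to 0.511). It was seen in 57 of 5493 HFD cells (1.04%) and in 207 of 7890 NC cells (2.62%), so the libraries differed in how many cells held any count. The 10 cells with the most Sqle held 38.99% of its HFD counts and 16.8% of its NC counts. Lss, which closes the ring to lanosterol, stood at 4.10 CPM in HFD and 3.31 CPM in NC, a ratio of 1.24 (interval 0.807 to 1.89). That interval is wide and held 1. Fdft1 overlaps Ctsb on the other strand.

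Of the 9 enzymes from lanosterol to cholesterol, 3 were lower by size, with a median log2 ratio of -0.19. Cyp51, which removes the first methyl group of lanosterol, stood at 16.1 CPM in HFD and 35.1 CPM in NC, a ratio of 0.459 (interval 0.379 to 0.553). Msmo1, the methyl sterol oxygenase, stood at 22.9 CPM in HFD and 38.6 CPM in NC, a ratio of 0.594 (interval 0.508 to 0.694). After thinning to 3000 counts per cell its ratio was 0.679, short of the 1.5-fold limit. Hsd17b7, the sterol ketone reductase that works with it, stood at 11.8 CPM in HFD and 22.4 CPM in NC, a ratio of 0.528 (interval 0.429 to 0.646). These 3 enzymes act in the removal of the methyl groups, and their intervals lay wholly below 1. Nsdhl, the dehydrogenase of the same demethylation complex, stood at 7.49 CPM in HFD and 9.37 CPM in NC, a ratio of 0.800 (interval 0.597 to 1.06). Its interval held 1. The sterol reductases Tm7sf2 and Lbr can act on the same double bond, and they stood at 3.82 and 20.1 CPM in HFD and at 3.04 and 22.9 CPM in NC. Neither ratio, 1.26 (interval 0.808 to 1.95) for Tm7sf2 and 0.877 (0.740 to 1.04) for Lbr, was clear of 1.

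The late steps had ratios near 1 with intervals that held 1. Ebp, the sterol isomerase, stood at 38.3 CPM in HFD and 40.8 CPM in NC, a ratio of 0.937 (interval 0.817 to 1.07). Sc5d, the desaturase after it, stood at 48.8 CPM in HFD and 48.9 CPM in NC, a ratio of 0.998 (interval 0.889 to 1.12). Dhcr7, a final reductase of the pathway, stood at 4.86 CPM in HFD and 4.14 CPM in NC, a ratio of 1.18 (interval 0.808 to 1.70). Cyp51 overlaps Akap9 on the other strand, and Tm7sf2 overlaps Vps51 on the same strand.

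None of the 6 genes of SREBP2 control was lower by size, and 2 had intervals wholly below 1. Srebf2 stood at 33.0 CPM in HFD and 46.6 CPM in NC, a ratio of 0.709 (interval 0.626 to 0.802), and counts of it were found in 10.9% of HFD and 14.2% of NC cells. Insig1, the sterol-sensing anchor that SREBP2 induces, stood at 62.0 CPM in HFD and 79.8 CPM in NC, a ratio of 0.778 (interval 0.708 to 0.853). Insig2, the form that SREBP2 does not induce in most tissues, stood at 26.4 CPM in HFD and 28.6 CPM in NC, a ratio of 0.923 (interval 0.785 to 1.08). The Insig1 and Insig2 intervals overlap, and the difference between the genes was not tested. Scap, the escort of SREBP2, stood at 15.2 CPM in HFD and 18.2 CPM in NC, a ratio of 0.835 (interval 0.677 to 1.03). The proteases had ratios above 1 with intervals that held 1: Mbtps1 stood at 47.0 CPM in HFD and 43.4 CPM in NC (1.08, 0.963 to 1.22). Mbtps2 stood at 8.27 and 7.25 CPM (1.14, 0.856 to 1.52). Srebf2 hosts Mir33 and Mbtps2 overlaps Yy2 on the same strand, so these values are uncertain to that extent.

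The remaining pair of members handle sterol inside the cell. Stard4, a soluble carrier that moves cholesterol between membranes, stood at 5.14 CPM in HFD and 8.21 CPM in NC, a ratio of 0.626 (interval 0.447 to 0.867). Tmem97, a sterol-binding membrane protein, stood at 22.6 CPM in HFD and 23.0 CPM in NC, a ratio of 0.979 (interval 0.831 to 1.15). Stard4 was lower by size, but not without Asc1 fibroblasts (0.722) or as a mean over the CPM of single cells (0.725), and the Tmem97 interval held 1.

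Within the promoters at hand, the 9 members whose interval lay below 1 all held a CCAAT box, as did 11 of the 15 others. The median log2 ratio was -0.26 for the 20 members with CCAAT and -0.02 for the 4 without. For the GC box, held by 8 of the same 9 members, it was -0.19 for 21 with and -0.02 for 3 without. Of the 20 with CCAAT, 17 had a ratio below 1, and Lss, Tm7sf2 and Dhcr7 were above 1. Of the 4 without, Acat2 and Scap were below 1 and Mbtps1 and Mbtps2 above. These splits are descriptions of few genes, and Mvk, with 5 CCAAT matches, had an interval that held 1.

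The 2 libraries differed in depth per cell and in the mix of classes. With every cell thinned to 3000 counts, 24 members were measured, 7 were lower by size, against 3.67% of measured genes, and the median log2 ratio was -0.35, against 0.01 over all genes. That thinning left out 86 HFD and 415 NC fibroblasts as shallower. The variance factors of the unthinned counts were kept for deciding which genes were measured. With the 4 fibroblast classes given equal weight, 9 of 28 were lower by size, against 5.14%, and the median was -0.23, against 0.02. None was higher by size in either case, against 3.74% of measured genes after thinning and 6.31% with equal weights.

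The same direction was found within the larger fibroblast classes, and few members could be measured in the small ones. In Asc1 fibroblasts 11 of 25 measured members were lower by size, against 5.14% of measured genes, with a median log2 ratio of -0.37 against -0.004 for all genes. In Gas6 fibroblasts 7 of 24 were lower by size, against 5.55%, with a median of -0.35 against 0.02. Pi16 fibroblasts had 4 of 16 lower by size (Hmgcs1, Idi1, Fdps and Cyp51), against 5.23%, with a median of -0.35 against 0.01. The whole interval lay below 1 for 13 measured members in Asc1 fibroblasts (12.7% of measured genes), 11 in Gas6 fibroblasts (12.6%) and 3 in Pi16 fibroblasts (8.8%). Only 5 members were measured in myofibroblasts, and Insig1 alone was lower by size, against 6.84% of genes. In pericytes 3 of 11 were lower by size (Hmgcs1, Fdps and Lbr), against 6.15%, with a median of 0.07 against 0.08. No measured member had an interval wholly below 1 in myofibroblasts or pericytes, where 7.74% and 9.18% of genes did. No measured member was higher by size in any class, where 4.63% of genes in Asc1, 5.77% in Gas6, 5.29% in Pi16, 6.73% in myofibroblasts and 10.7% in pericytes were. The summed level of the 28 genes gave ratios of 0.720 in Asc1, 0.788 in Gas6 and 0.822 in Pi16 fibroblasts, 0.908 in myofibroblasts and 0.940 in pericytes. Differences between classes in these ratios were not tested.

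**Figure D2:**
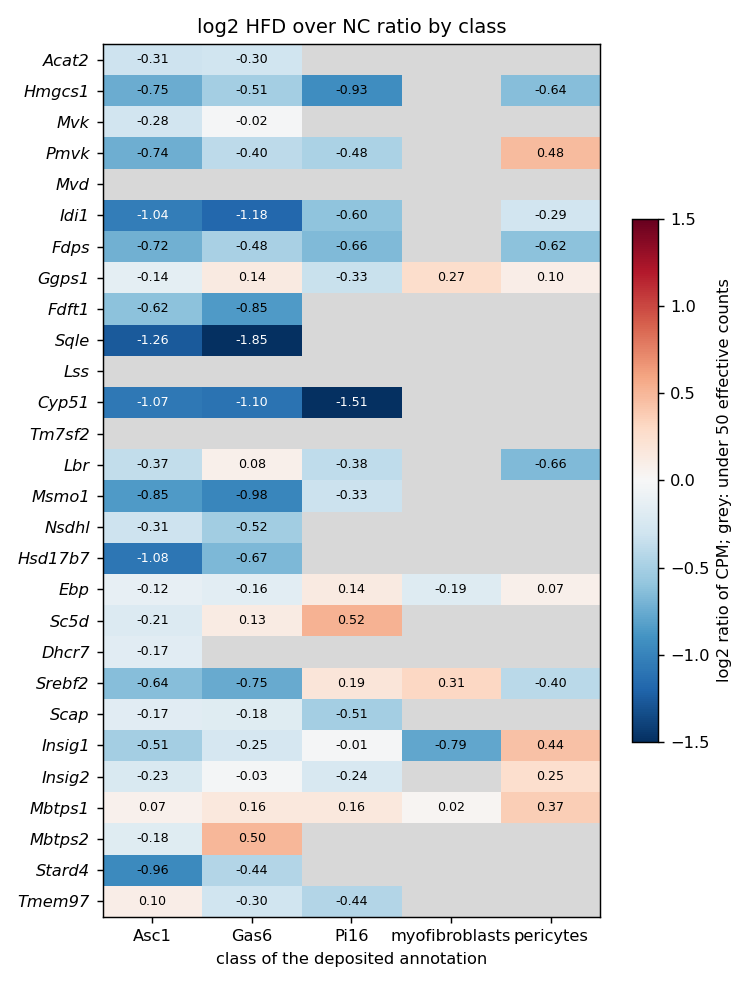
log2 HFD over NC ratio of CPM for each of the 28 genes (rows, in pathway order) in each class of the deposited annotation (columns), with blue below 0 and red above 0; grey cells had under 50 effective counts. Idi1, Sqle, Cyp51 and Hsd17b7 are at or below -0.67 in both Asc1 and Gas6 fibroblasts, and most of the myofibroblast column is grey.

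Sqle was 5.08 CPM in HFD against 12.1 CPM in NC in Asc1 fibroblasts, 2.63 against 9.49 in Gas6 and 2.01 against 8.56 in Pi16 fibroblasts, 4.50 against 14.0 in myofibroblasts and 5.82 against 6.58 in pericytes. HFD was the lower library in each class, and the ratio was measured in Asc1 (0.418, 0.249 to 0.683) and Gas6 fibroblasts (0.277, 0.121 to 0.566). Cyp51 was 15.6 CPM in HFD against 32.9 CPM in NC in Asc1 fibroblasts, 18.99 against 40.8 in Gas6 and 10.6 against 30.3 in Pi16 fibroblasts, 17.2 against 20.2 in myofibroblasts and 11.8 against 18.4 in pericytes. Its ratio was 0.476 (0.352 to 0.637) in Asc1, 0.465 (0.343 to 0.623) in Gas6 and 0.351 (0.183 to 0.634) in Pi16 fibroblasts, 3 intervals that overlap each other and lie below 1.

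Idi1 was 23.9 CPM in HFD against 48.9 CPM in NC in Asc1 fibroblasts, 18.4 against 41.6 in Gas6 and 16.2 against 24.5 in Pi16 fibroblasts, 18.9 against 31.2 in myofibroblasts and 16.9 against 20.6 in pericytes. Its ratio was 0.488 (0.385 to 0.615) in Asc1 and 0.442 (0.327 to 0.590) in Gas6 fibroblasts, and the Pi16 interval, 0.383 to 1.11, held 1. Hsd17b7 was 10.9 CPM in HFD against 23.1 CPM in NC in Asc1 fibroblasts, 15.01 against 23.9 in Gas6 and 6.50 against 15.3 in Pi16 fibroblasts, 13.8 against 25.3 in myofibroblasts and 5.98 against 12.9 in pericytes. It was measured in Asc1 (0.473, 0.340 to 0.650) and Gas6 fibroblasts (0.629, 0.456 to 0.859) and had too few counts in the others. Msmo1 was 29.5 CPM in HFD against 53.2 CPM in NC in Asc1 fibroblasts, 16.6 against 32.8 in Gas6 and 18.8 against 23.6 in Pi16 fibroblasts, 18.3 against 16.3 in myofibroblasts and 12.3 against 21.5 in pericytes. HFD was lower in each class but myofibroblasts, and the gene was not measured in myofibroblasts or pericytes.

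Hmgcs1 was 33.4 CPM in HFD against 56.1 CPM in NC in Asc1 fibroblasts, 32.9 against 46.9 in Gas6 and 21.3 against 40.6 in Pi16 fibroblasts, 23.7 against 35.7 in myofibroblasts and 26.8 against 41.7 in pericytes. Its level was lower in HFD in each class, with intervals below 1 in Asc1 (0.596, 0.482 to 0.735), Gas6 (0.702, 0.549 to 0.891) and Pi16 fibroblasts (0.524, 0.326 to 0.822). In pericytes the interval began at 0.413 and held 1. Fdps was 41.4 CPM in HFD against 68.1 CPM in NC in Asc1 fibroblasts, 32.1 against 44.9 in Gas6 and 23.9 against 37.7 in Pi16 fibroblasts, 15.2 against 36.6 in myofibroblasts and 26.4 against 40.6 in pericytes. It followed the same order between libraries in each class. Where it was measured, its interval lay below 1 in Asc1, Gas6 and Pi16 fibroblasts and held 1 in pericytes.

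Srebf2 did not have the same direction in each class. It was 32.3 CPM in HFD against 50.3 CPM in NC in Asc1 fibroblasts, 28.7 against 48.3 in Gas6 and 40.7 against 35.7 in Pi16 fibroblasts, 43.4 against 35.1 in myofibroblasts and 27.2 against 35.8 in pericytes. The ratio was 0.643 (0.532 to 0.776) in Asc1 and 0.595 (0.476 to 0.738) in Gas6 fibroblasts, but 1.14 (0.818 to 1.58) in Pi16 fibroblasts. The Pi16 interval held 1 and did not overlap the other 2, and the difference itself was not tested. In the same Pi16 cells the intervals of Hmgcs1, Fdps and Cyp51 lay below 1.

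Insig1 was 73.0 CPM in HFD against 104 CPM in NC in Asc1 fibroblasts, 63.4 against 75.4 in Gas6 and 40.7 against 41.0 in Pi16 fibroblasts, 24.5 against 42.2 in myofibroblasts and 24.3 against 17.9 in pericytes. The whole interval lay below 1 in Asc1 (0.703, 0.617 to 0.799) and Gas6 fibroblasts (0.841, 0.719 to 0.983), and the Pi16 ratio was 0.992 (0.715 to 1.37). Insig2 was 25.2 CPM in HFD against 29.5 CPM in NC in Asc1 fibroblasts, 27.0 against 27.5 in Gas6 and 23.4 against 27.6 in Pi16 fibroblasts, 39.4 against 33.9 in myofibroblasts and 55.1 against 46.3 in pericytes. Its measured intervals all held 1. Scap was 16.1 CPM in HFD against 18.1 CPM in NC in Asc1 fibroblasts, 14.3 against 16.1 in Gas6 and 18.2 against 25.9 in Pi16 fibroblasts, 5.35 against 13.1 in myofibroblasts and 14.9 against 9.07 in pericytes. The ratio of Scap was measured in Asc1, Gas6 and Pi16 fibroblasts, and each interval held 1.

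**Figure D3:**
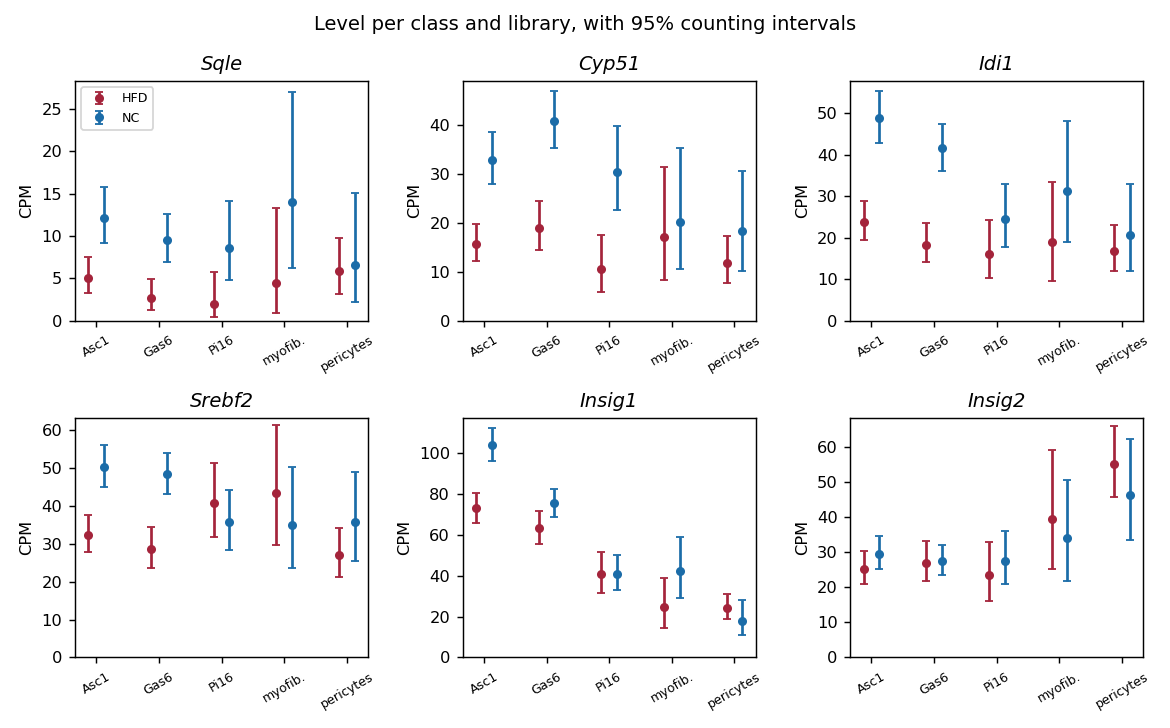
Level of 6 of the genes in CPM (vertical axes from 0) in each class, HFD in red and NC in blue, points with 95% counting intervals. For Sqle, Cyp51 and Idi1 the HFD interval lies below the NC interval in Asc1 and Gas6 fibroblasts; Insig1 is highest in Asc1 fibroblasts and Insig2 in pericytes in both libraries.

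Levels of several members differed between classes in the same way in both libraries. The annotation was made on these same cells, so this is a description. Asc1 fibroblasts had 8 members whose interval against all other classes lay wholly above 1 in both libraries, against 16.2% of 13532 measured genes, and 0 below, against 13.7%. These were Mvk, Idi1, Fdps, Msmo1, Nsdhl, Sc5d, Insig1 and Tmem97. Tmem97 stood at 32.3 CPM in HFD and 30.2 CPM in NC Asc1 fibroblasts, 2.68 and 1.70 times the level of the other classes. Sc5d stood at 61.7 and 71.1 CPM there, 1.98 and 2.21 times the others. Msmo1 was 1.86 and 1.87 times and Insig1 1.64 and 1.74 times the others. The Asc1 class was the highest of the 5 for 11 members in both libraries and the lowest for none.

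The class with the lowest level was not the same in both libraries for most members: Pi16 fibroblasts were lowest for 13 members in HFD and 3 in NC, pericytes for 9 and 12, myofibroblasts for 5 and 9 and Gas6 fibroblasts for 1 and 4. Pericytes had 6 members wholly below the other classes in both libraries (Msmo1, Ebp, Sc5d, Insig1, Mbtps1 and Tmem97), against 16.7% of measured genes, a share near that of all genes. Sc5d stood at 14.9 CPM in HFD and 9.07 CPM in NC pericytes, 0.305 and 0.186 times the others. Insig2 had the opposite pattern, at 55.1 and 46.3 CPM in pericytes, 2.08 and 1.62 times the other classes, and was the 1 member above them there (12% of genes). Pi16 fibroblasts had 5 members below (Mvk, Pmvk, Sc5d, Insig1 and Tmem97), against 10.4% of genes, and Mbtps1 above, against 8.68%. Myofibroblasts had 3 below (Sc5d, Insig1 and Tmem97), against 7.08%, and 0 above, against 6.7%. Gas6 fibroblasts had Pmvk above (6.49% of genes) and Msmo1 below (7.74%). Insig1 was lowest and Insig2 highest in pericytes in both libraries, although the HFD levels of Insig1 in pericytes and myofibroblasts, 24.3 and 24.5 CPM, had overlapping intervals.

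A finer column of the deposited annotation splits an SNAT2 subset (245 HFD and 359 NC kept cells) from the Asc1 class. None of the 28 genes had 50 effective counts there, so no HFD over NC ratio is given for it. Of the 25 members measured in the Asc1 class, 2 in HFD had an interval wholly above 1 in the subset against the rest of the class (13% of 10799 genes) and 0 below (9.22%). In NC there were 0 above (13.3%) and 0 below (10.1%). Hmgcs1 stood at 82.9 CPM in the HFD subset and 31.3 CPM in the rest of the class, a ratio of 2.64 (interval 1.40 to 4.63). In NC the same comparison gave 52.6 and 56.3 CPM, a ratio of 0.934 (0.475 to 1.66). Mbtps1 stood at 81.0 CPM in the HFD subset and 40.6 CPM outside it (1.997, 1.13 to 3.29), and at 65.3 and 39.0 CPM in NC (1.67, 0.966 to 2.72). Tm7sf2, which was not measured in the Asc1 class, stood at 14.4 CPM in the NC subset, on 17 counts, and 3.29 CPM outside it (4.38, 1.15 to 12.8). It had 0 counts in the HFD subset, against 3.79 CPM outside it, a ratio of 0 with an interval that held 1 (0 to 5.57). Subset cells had a median of 4009 HFD and 3037 NC counts, and the part of depth in these values was not tested.

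Genes around the pathway, taken from lists chosen by function, mostly stood near the level of all genes in pooled fibroblasts. Over all measured genes there, 4.3% were lower and 5.17% higher by size, which is the share to set beside each list below. Of 6 genes that supply acetyl-CoA, 1 was lower by size and 0 higher, with a median log2 ratio of -0.18. That gene was Aacs, a cytosolic ligase that feeds acetoacetate into lipid synthesis, at 3.30 CPM in HFD and 6.38 CPM in NC, a ratio of 0.518 (interval 0.343 to 0.767). Of 15 genes of the isoprenoid branches to dolichol, ubiquinone and prenylated proteins, 0 were lower or higher by size, with a median of -0.05. Dolk, the dolichol kinase, stood at 18.3 CPM in HFD and 26.1 CPM in NC, a ratio of 0.702 (interval 0.582 to 0.843). Fntb, a subunit of the farnesyltransferase, stood at 7.13 CPM in HFD and 4.79 CPM in NC, a ratio of 1.49 (interval 1.07 to 2.07). Both were short of the 1.5-fold limit.

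Of 6 electron donors and scaffold genes of sterol synthesis, 0 were lower or higher by size, with a median of -0.07. Cyb5a, a cytochrome that passes electrons to sterol enzymes, stood at 336 CPM in HFD and 412 CPM in NC, a ratio of 0.814 (interval 0.778 to 0.852). Its reductase Cyb5r3 stood at 39.8 CPM in HFD and 46.4 CPM in NC, a ratio of 0.857 (interval 0.741 to 0.989). Of 16 genes that degrade or transport the SREBP machinery, 1 was lower by size and 0 higher, with a median of -0.05. Sec24d and Sec24a encode coat proteins of the vesicles that leave the endoplasmic reticulum. Sec24d stood at 27.6 CPM in HFD and 41.8 CPM in NC, a ratio of 0.661 (interval 0.577 to 0.754). Sec24a stood at 26.2 CPM in HFD and 38.0 CPM in NC, a ratio of 0.689 (interval 0.595 to 0.797).

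Of 13 sterol transport and storage genes, 0 were lower or higher by size, with a median of 0.02. Lipa, the lysosomal lipase that frees cholesterol from its esters, stood at 104 CPM in HFD and 90.0 CPM in NC, a ratio of 1.15 (interval 1.06 to 1.255). Osbpl2, an oxysterol-binding protein, stood at 11.7 CPM in HFD and 8.82 CPM in NC, a ratio of 1.33 (interval 1.04 to 1.70). Of 8 measured oxysterol and export genes, 1 was lower by size and 0 higher, with a median of -0.01. Ch25h makes a hydroxylated cholesterol that holds SCAP in the endoplasmic reticulum, and Cyp7b1 breaks such oxysterols down. Ch25h stood at 30.7 CPM in HFD and 56.5 CPM in NC, a ratio of 0.544 (interval 0.433 to 0.679). Cyp7b1 stood at 20.6 CPM in HFD and 27.9 CPM in NC, a ratio of 0.739 (interval 0.622 to 0.877).

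The fatty acid genes that are usual targets of SREBP1 had the lowest median of the 7 lists in pooled fibroblasts. Of 11 measured genes, 1 was lower by size (4.3% of all genes) and 0 higher (5.17%), with a median of -0.35. The interval lay below 1 for 6 of them, against 15.6% of measured genes. In Asc1 fibroblasts 7 of 10 measured genes of the list were lower by size (5.14% of all genes), with a median log2 ratio of -0.62, against -0.37 for the sterol genes there. The list had 1 of 11 lower by size in Gas6 fibroblasts (median -0.33), against 5.55% of measured genes. It had 0 of 10 in Pi16 fibroblasts (median -0.08), against 5.23%, and 0 of 8 in pericytes (median 0.04), against 6.15%. The 1 gene measured in myofibroblasts was higher by size (6.73% of all genes), at a log2 ratio of 0.95. Lpin1, a phosphatase of triglyceride synthesis, stood at 42.4 CPM in HFD and 61.7 CPM in NC, a ratio of 0.687 (interval 0.611 to 0.771). Fads1, a desaturase of polyunsaturated fatty acids, stood at 36.8 CPM in HFD and 51.8 CPM in NC, a ratio of 0.711 (interval 0.627 to 0.804). Elovl6, an elongase, was the gene lower by size, at 6.40 CPM in HFD and 10.4 CPM in NC, a ratio of 0.613 (interval 0.456 to 0.818). It was named after its value was seen.

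**Figure D4:**
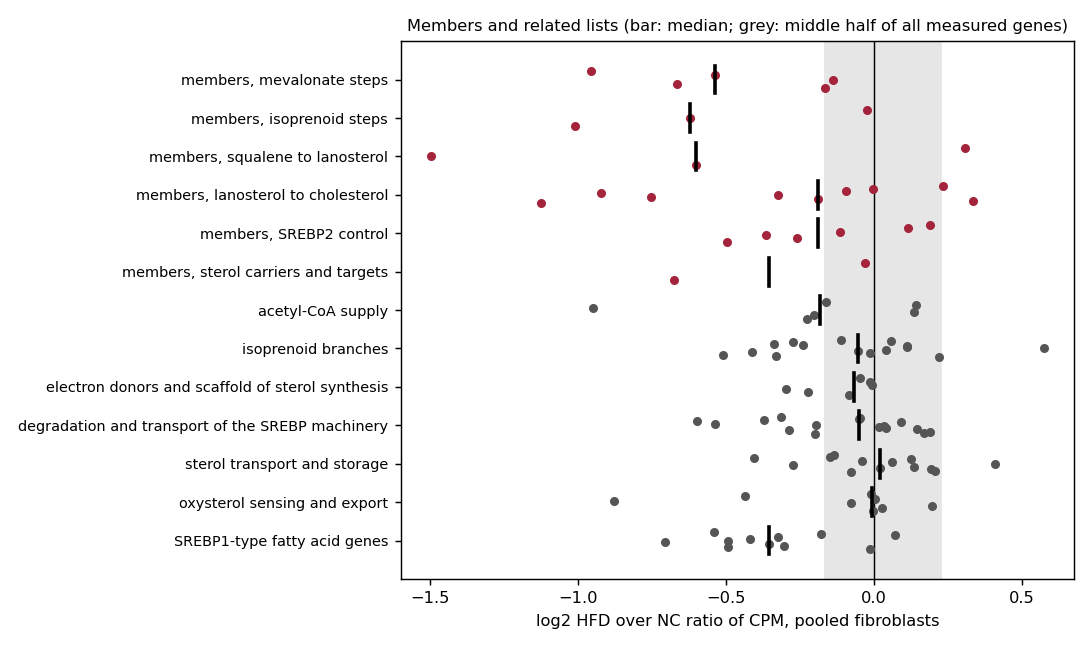
log2 HFD over NC ratio of each measured gene (points) in pooled fibroblasts for the 28 genes by role (red) and for 7 lists of related genes (grey points); black bars are list medians and the grey band is the interquartile range of all measured genes. Medians of the mevalonate, isoprenoid and squalene groups are at -0.54, -0.62 and -0.60, and that of the fatty acid list is at -0.35.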

How the data were processed

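Single-cell 3′ transcriptomes of 1 HFD and 1 NC library were used. STAR was run and mm39 was the build, per the submitters' processing notes; versions, strand setting and molecule counting are not given in the sources used here. Values in the deposited tables are log2(CPM + 1) of each cell, as the values themselves show, beside the cell's total, an estimated count. They also hold, per the file headers, the count of detected genes and the percent of mitochondrial counts. The log2 scale was reversed and the result multiplied by the total to give counts; 98.8% of nonzero HFD and 98.96% of NC values came out whole within 0.01, and all were rounded. Gene names matched 20144 of 21014 identifiers (95.9%). The filter (500 genes or more, mitochondrial share of 10% or less) removed 12.7% of the HFD cells and 9.71% of the NC cells. Classes came from the deposited annotation. No doublet caller was run; leaving out the 5% of cells with the highest totals was an alternative.

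Counts were summed per class and library and given as CPM. HFD over NC ratios have exact conditional 95% Poisson intervals on effective counts, the count divided by the gene's variance factor among cells of a class (4.85 to 7.81 over the members in HFD, 3.98 to 7.80 in NC). A ratio of 1.5 in either direction was called lower or higher by size. There was no test, and cells are not replicates. CPM was not divided by length, so levels are not compared between genes. The members and lists were chosen with earlier results of these data known. All members are given for pooled fibroblasts, and by class the 8 whose interval bound lay farthest from 1 with Srebf2, Scap, Insig1 and Insig2; of each related list, up to 2 genes by the same bound whose interval excluded 1 are given. The calculation was checked on simulated data. For the intervals these were drawn with the same Poisson form and variance factors, so their fit to the real counts was not checked. Alternatives changed the cell filter, scaling (edgeR 4.0.16 TMM, DESeq2 1.42.0 size factors), weights, classes, depth and minimum counts. Promoters are RefSeq's, and overlaps come from GENCODE M21, both of an older build. Python 3.11.15, NumPy 2.4.6, SciPy 1.17.1, pandas 2.3.3, matplotlib 3.10.9 and R 4.3.3 were used.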

Additional observations from a re-analysis of the deposited data

How the results depend on the processing

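Over 19 alternatives, 21 to 28 members were measured in pooled fibroblasts. Of them, 7 to 11 were lower by size, against 2.91% to 6.23% of measured genes, and 0 higher, against 3.01% to 7.40%. The median log2 ratio ranged from -0.36 (without Asc1 fibroblasts) to -0.23 (equal class weights). With a 2-fold limit 3 members were lower (Sqle, Cyp51 and Idi1), against 0.914% of measured genes. With a minimum of 200 effective counts, 21 members were measured and 7 of these were lower by size. Calls by gene here use the ratio alone, whether or not the gene was measured under the alternative. Of the 10 members lower by size, 0 crossed a ratio of 1. By ratio, 5 (Sqle, Cyp51, Idi1, Hmgcs1 and Hsd17b7) stayed at least 1.5-fold lower under all 19. Fdft1 lost that call under 7, Mvd and Stard4 under 2 each and Fdps and Msmo1 under 1 each, while Pmvk gained it without Gas6 fibroblasts and Srebf2 under 2. The ratio crossed 1 for 8 other members: Acat2 (0.812 to 1.18), Dhcr7 (0.966 to 1.45), Ggps1, Insig2, Mbtps2 (0.928 to 1.45), Sc5d, Tm7sf2 (0.845 to 1.56) and Tmem97. Of 532 recomputed member ratios, 5 moved beyond the counting interval, and the cause was not tested. Ratios could not move where only the minimum counts or the variance factor changed. Without Asc1 fibroblasts Tmem97 moved to 0.780 and Mvd to 0.299, where Mvd had too few effective counts to be measured. Srebf2 moved to 0.857 with equal class weights and 0.828 after thinning, and Mbtps1 to 1.30 in cells of 5000 to 10000 counts. That depth window, leaving out the Gas6, Pi16 or myofibroblast class in turn and a single variance factor per library were chosen after seeing the data. TMM and median-of-ratios scaling moved the median of all genes from 0.03 to 0.00. No paired analysis was possible because each diet has 1 library. Low depth limits Mvd, Lss, Tm7sf2, Dhcr7 and most members in myofibroblasts.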

Other observations

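In the cells that the filter left out, the 28 genes summed to 458 CPM in HFD and 603 CPM in NC, a ratio of 0.761. Of them, Mvk alone had an interval clear of 1, at 7.54 CPM in HFD and 21.8 CPM in NC (0.345, 0.104 to 0.981), which rests on 34 and 69 counts. The share of all genes with such an interval was not computed in these cells. In the kept pooled fibroblasts the Mvk interval held 1 (0.908, 0.735 to 1.12).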
